A study of Mus musculus with 12 samples.

Results

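The comparison described here sets mouse bone marrow progenitors that carried the NUP98-NSD1 fusion and the second of the study's shRNAs against Nizp1 (shNizp1#2) beside cells with the same fusion and a control shRNA. Its members are 6 of the 12 libraries of the series, chosen by their sample titles: 3 libraries labelled sh#2 and 3 labelled sh#ctrl. The cells came from bone marrow, are labelled c-Kit+/Sca-1+/Lin- (a fraction rich in stem and progenitor cells), and were cultured with IL-3 and IL-6 (20 ng/ml each) and SCF (100 ng/ml). In both groups NUP98-NSD1 was delivered by retrovirus, followed by geneticin selection, and the shRNA by the pLKO.1-puro vector for constitutive knockdown, so that both carried the fusion, the selection and an shRNA vector. The other groups of 3 libraries were NUP98-NSD1 cells with shNizp1#1, and cells with the empty MSCV vector and the control shRNA. The main fit used all 12 libraries, so these groups also entered its filter, scaling and estimate of spread. Their values are given only where named. The strain and age of the mice, and whether a culture was a clone or held pooled animals, are not stated in the labels. The series' text speaks of independent experiments, and libraries that share the trailing number of their title are called an experiment below.

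Nizp1, listed under its gene symbol Zkscan17, is a zinc finger protein that binds DNA and was named for its interaction with NSD1, a methyltransferase of histone H3 lysine 36. NUP98-NSD1 joins part of the nucleoporin NUP98 to NSD1 and occurs in acute myeloid leukaemia, where HoxA genes are highly expressed. An shRNA is processed to a short guide RNA that lowers the transcript it matches, and a guide can also lower other transcripts through a short match of its 5′ end, the seed, often in their 3′ UTRs.

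Zkscan17 (chromosome 11, 59485520 to 59506644, minus strand) was lower in all 3 experiments with shNizp1#2. It measured 62.6, 49.4 and 61.8 CPM (normalised read counts scaled to library size and the TMM factor) with the control shRNA in experiments 1, 2 and 3, and 29.0, 17.6 and 27.0 CPM with shNizp1#2. The groups did not overlap. The log2 fold change was -1.25 (SE 0.12, adjusted p = 2.90e-04, edgeR's quasi-likelihood test with the experiment as a block). Without the block edgeR and limma-voom did not call it (-1.24 and -1.26, adjusted p = 0.228 and 0.184), and DESeq2 did (-1.24, adjusted p = 5.30e-06). With shNizp1#1 the gene measured 35.0, 26.2 and 30.4 CPM, and the direct difference between the shRNAs, -0.32 (SE 0.13), missed the threshold (adjusted p = 0.230).

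**Figure D1:**
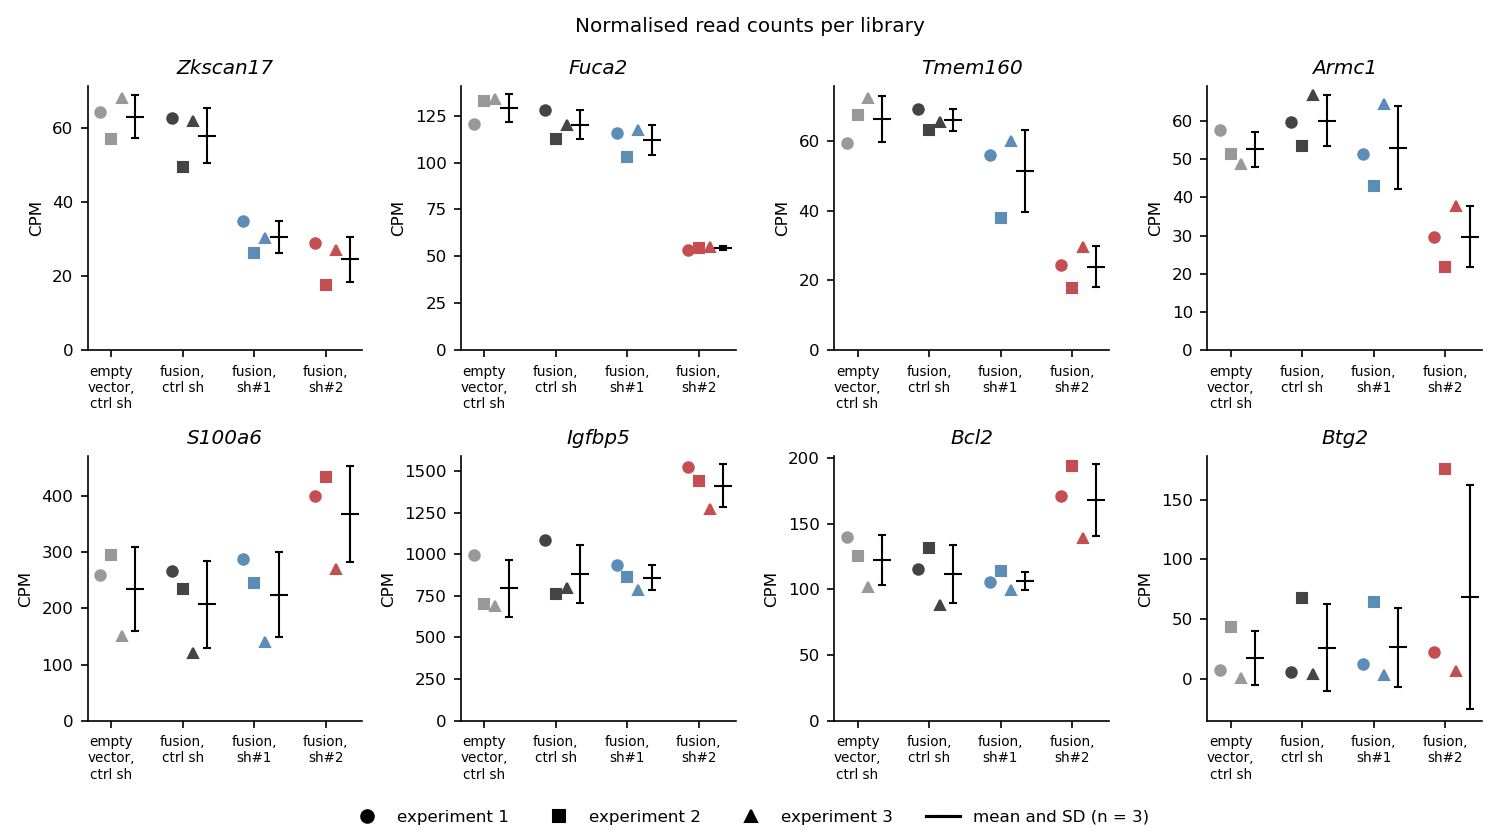
Normalised read counts (CPM, linear axes) of 8 genes in all 12 libraries, by group, with the marker showing the experiment and the bar the mean and SD of 3 libraries. Zkscan17 is low with both shRNAs against Nizp1, while Fuca2, Tmem160 and Armc1 are lowest with shNizp1#2, and Btg2 differs more between experiments than between groups.

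Few genes passed the test. Of 11994 genes tested, 26 were called at an adjusted p under 0.05 (0.217%), 17 of them higher (0.142%) and 9 lower (0.0750%) with shNizp1#2. The log2 fold changes of all tested genes had a median of -0.00196, and from the 5th to the 95th percentile they ran from -0.416 to 0.556. Only 10 of the 26 changed by at least 2-fold, 4 higher and 6 lower. Before adjustment, 1331 genes (11.1%) had p under 0.05, 717 of them higher and 614 lower. All 26 called genes had the same direction in the 3 experiments. In 20 of the 26 the groups did not overlap, against 6.52% of all tested genes, but these genes were called on the same values and nothing is read from that share. Fuca2, Tmem160 and Zkscan17 were the 3 genes that were at least 2-fold lower in each of the 3 experiments, where the higher library of each pair had to reach 5 CPM, and no such gene was 2-fold higher in each.

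The count of calls rested on all 6 libraries. Leaving out any of them left between 4 and 9 called genes, and without the experiment as a block edgeR called 1 gene, Fuca2. More genes were called by DESeq2 with the block (78), without a filter on low counts (369) and in a fit to the 6 libraries alone (342). Zkscan17, Fuca2 and Tmem160 were called whichever of the 6 libraries was left out. S100a6 was called in 5 of those 6 fits, the exception being the fit without the control library of experiment 3 (adjusted p = 0.0634), and Armc1 and Snx3 in 3 of 6. Each other called gene was called in at most 2 of the 6, so that these calls depended on nearly every library. Nothing in the labels says which animals the libraries came from, and the p-values reflect only how these libraries varied.

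**Figure D2:**
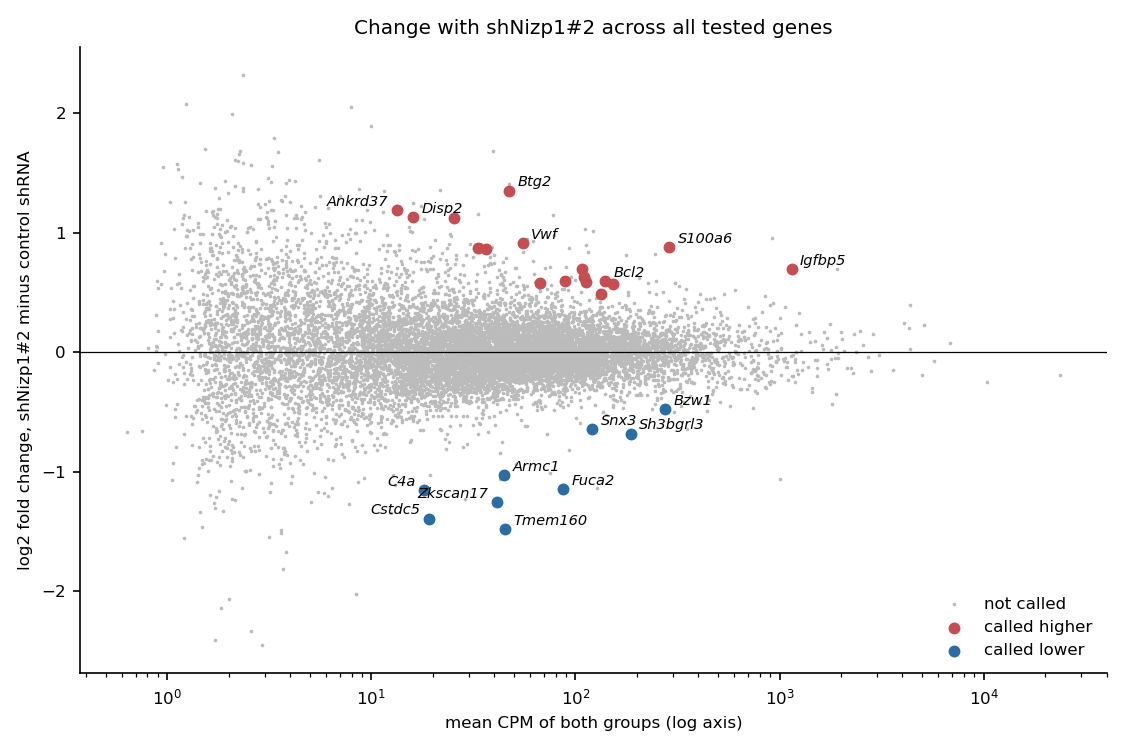
Log2 fold change with shNizp1#2 against the mean CPM of both groups (log axis) for 11994 tested genes, with the 17 genes called higher in red and the 9 called lower in blue; the labels name 16 of the 26. Each called gene averaged at least 18.0 CPM in its higher group, while low-count genes with larger differences were not called.

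Fuca2 (chromosome 10, 13501001 to 13519035), which encodes a secreted alpha-L-fucosidase, had the smallest adjusted p of all tested genes. It measured 128, 112 and 120 CPM with the control shRNA and 53.3, 54.6 and 55.2 CPM with shNizp1#2. The shNizp1#2 values were nearly equal and lay under every control value. The log2 fold change was -1.14 (SE 0.09, adjusted p = 6.21e-05), and Fuca2 was called under each of the 20 alternatives, the fit without the block included. With shNizp1#1 Fuca2 measured 116, 103 and 117 CPM. The direct test of shNizp1#2 against shNizp1#1 gave -1.04 (adjusted p = 2.13e-04).

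Tmem160 (chromosome 7, 16452779 to 16455490), which encodes a small transmembrane protein, had the largest decrease among the called genes. It measured 69.2, 63.2 and 65.3 CPM with the control shRNA and 24.5, 17.8 and 29.6 CPM with shNizp1#2, without overlap. The log2 fold change was -1.48 (SE 0.15, adjusted p = 3.51e-04). Without the block it was not called by edgeR or limma-voom (adjusted p = 0.137 and 0.128) and was called by DESeq2 (adjusted p = 1.50e-07). It was also not called with experiment 1 left out of every group (adjusted p = 0.0580). With shNizp1#1 it measured 55.9, 38.0 and 59.99 CPM, and the direct difference between the shRNAs was -1.10 (adjusted p = 0.00217).

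The other genes called lower were Armc1, Snx3, Sh3bgrl3, Bzw1, C4a and Cstdc5. Armc1, an armadillo repeat protein found at mitochondria, measured 59.8, 53.5 and 66.9 CPM with the control shRNA and 29.7, 21.8 and 37.7 CPM with shNizp1#2 (log2 fold change -1.03, SE 0.14, adjusted p = 0.00659). Snx3, a sorting nexin that works with the retromer in endosomal recycling, measured 148, 137 and 156 CPM against 100.0, 80.4 and 104 CPM (-0.64, SE 0.08, adjusted p = 0.00511). Neither gene's groups overlapped. Sh3bgrl3, a small thioredoxin-like protein, went from 244, 182 and 263 CPM to 137, 113 and 183 CPM (-0.68, adjusted p = 0.0148), with an overlap of groups but a decrease within each experiment. Bzw1, a regulator of translation start, went from 344, 294 and 315 CPM to 271, 207 and 212 CPM (-0.47, adjusted p = 0.0356). Armc1 was not called without the control library of experiment 3, or without the shNizp1#2 library of experiment 1 or of experiment 2 (adjusted p = 0.0648, 0.0716 and 0.0612). The same 3 omissions left Snx3 uncalled (adjusted p = 0.0634, 0.0512 and 0.0612).

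C4a and Cstdc5 belong to families with near-identical copies, and their counts are uncertain where reads could be split between copies. C4a, a complement C4 gene, measured 24.1, 19.9 and 31.2 CPM with the control shRNA and 12.6, 8.04 and 13.2 CPM with shNizp1#2 (log2 fold change -1.15, adjusted p = 0.0356). Its levels with shNizp1#1 were 9.52, 7.81 and 16.2 CPM. Cstdc5, a cystatin domain gene, varied far more between experiments than between groups, with 23.0, 57.0 and 0.589 CPM against 6.69, 27.8 and 0 CPM (-1.39, adjusted p = 0.0421). With shNizp1#1 Cstdc5 measured 5.71, 19.8 and 0 CPM. Neither gene differed detectably between the shRNAs (adjusted p = 0.993 for C4a and 0.585 for Cstdc5).

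Among the genes called higher, S100a6, a calcium-binding protein, had the smallest adjusted p. It measured 266, 235 and 120 CPM with the control shRNA and 400, 434 and 271 CPM with shNizp1#2, so that the lowest shNizp1#2 value lay just above the highest control value. The log2 fold change was 0.88 (SE 0.11, adjusted p = 0.00348). Igfbp5, a secreted binding protein of insulin-like growth factors, was the most abundant of the called genes. It measured 1084, 761 and 798 CPM against 1525, 1439 and 1272 CPM, without overlap (0.70, SE 0.10, adjusted p = 0.00938).

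Bcl2, which encodes an inhibitor of apoptosis at the mitochondrial membrane, measured 115, 132 and 87.9 CPM with the control shRNA and 171, 194 and 139 CPM with shNizp1#2. Every shNizp1#2 value exceeded every control value. The log2 fold change was 0.59 (SE 0.10, adjusted p = 0.0241), and Bcl2 was called in none of the 6 fits that left out a library. With shNizp1#1 it measured 106, 114 and 99.6 CPM, and the direct difference between the shRNAs was 0.65 (adjusted p = 0.00358). Bcl2 was the only called member of the BCL2 family list, of which 19 members were tested (12 above 0 and 7 below, median 0.0403). Of all tested genes 0.217% were called.

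Btg2, an antiproliferative gene that is induced early after stimulation and by p53, had the largest increase among the called genes. It measured 6.13, 67.8 and 4.32 CPM with the control shRNA and 22.8, 176 and 6.75 CPM with shNizp1#2. Experiment 2 was high in both groups and the groups overlapped, while Btg2 was higher with shNizp1#2 within each experiment. The log2 fold change was 1.35 (SE 0.22, adjusted p = 0.0241), and it was called in 1 of the 6 fits that left out a library. Against shNizp1#1 the difference was 1.22 (adjusted p = 0.0102).

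Disp2, a relative of the Hedgehog release protein Dispatched, was the called gene with the most even control values, 9.85, 9.88 and 10.0 CPM, against 19.6, 29.4 and 17.5 CPM with shNizp1#2 (log2 fold change 1.13, adjusted p = 0.0356). Serpinb2, an intracellular inhibitor of plasminogen activators, went from 19.3, 22.7 and 7.26 CPM to 41.9, 37.1 and 23.3 CPM (1.13, adjusted p = 0.0297). The groups of both genes were separate. Ankrd37, a target of hypoxia-inducible factor, was at 3.94, 21.6 and 0.196 CPM against 10.8, 42.4 and 1.03 CPM (1.19, adjusted p = 0.0432), with experiment 3 near the floor in both groups. Vwf, the von Willebrand factor of platelets and endothelium, was at 32.6, 64.1 and 17.5 CPM against 56.6, 124 and 35.9 CPM (0.91, adjusted p = 0.0265), also with overlapping groups. The remaining increases lay between 0.49 and 0.87. They were those of Aldh3a1, an aldehyde dehydrogenase, Rnf149, a ubiquitin ligase, Gpsm1, a modulator of G protein signalling, and Mgat4b and Slc35c1, an N-glycan branching enzyme and the GDP-fucose transporter of the Golgi. Adgrg3, a receptor of granulocytes, was among them too. The last 3, Cd244a, Ube3c and Adgrl1, fell outside the rule for naming genes and were named after their values were seen.

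A direct test asked which differences also separated shNizp1#2 from shNizp1#1. Over all tested genes it called 284 (2.37%), 214 higher with shNizp1#2 (1.78%) and 70 lower (0.584%). Both comparisons contain the shNizp1#2 libraries, so a call in both is no independent repeat. Of the 9 genes called lower against the control, the direct test called 6: Fuca2, Tmem160, Armc1, Snx3, Sh3bgrl3 and Bzw1. Of the 17 called higher it called 7: Btg2, Serpinb2, Disp2, S100a6, Igfbp5, Bcl2 and Gpsm1. For the other 13 genes, Zkscan17 among them, the shRNAs did not differ past the threshold, which does not show that they acted alike. Adgrg3, for example, measured 138, 97.5 and 134 CPM with the control shRNA, 208, 157 and 179 CPM with shNizp1#2 and 272, 176 and 248 CPM with shNizp1#1. Against the control, Zkscan17 (-0.93), Cstdc5 (-1.78) and C4a (-1.15) were also called lower with shNizp1#1. Adgrg3 (0.91), Vwf (0.70), Aldh3a1 (0.64), Mgat4b (0.54) and Ube3c (0.54) were called higher with it. Rnf149, Slc35c1, Cd244a, Ankrd37 and Adgrl1 were higher with it but not called. Both shRNAs were compared with the same control libraries, so these calls are not independent either.

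**Figure D3:**
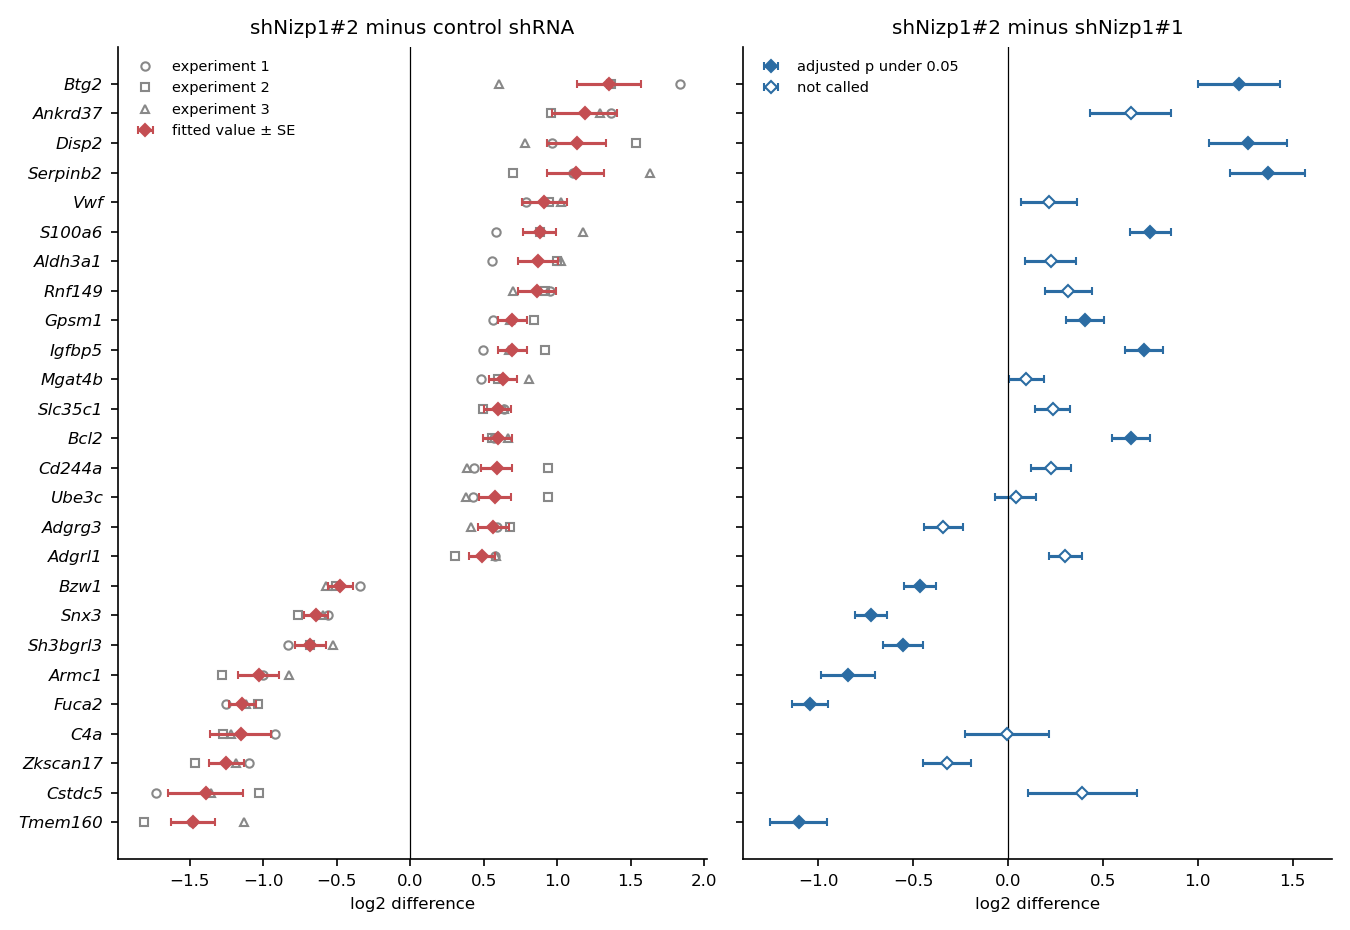
Log2 differences of the 26 called genes, with shNizp1#2 minus control shRNA on the left (grey markers for the 3 experiments, diamonds for the fitted value ± SE) and shNizp1#2 minus shNizp1#1 on the right (filled where the adjusted p was under 0.05). The 6 genes with filled markers left of 0 are Bzw1, Snx3, Sh3bgrl3, Armc1, Fuca2 and Tmem160, while Zkscan17, C4a and Cstdc5 have open markers.

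The 3′ UTRs of the 6 genes that were lower with shNizp1#2 than with either other shRNA were read from the GENCODE vM21 annotation, since guides often act there. All 6 contained the 6-base word TCCGCA on the sense strand. The word was taken from a ranking of all 4096 possible words over the 11039 tested genes with a 3′ UTR. The ranking used the mean log2 fold change against the control of genes with a word minus that of the others, scaled by its standard error. TCCGCA ranked 1, the lowest, and in experiments 1, 2 and 3 alone it ranked 37, 1 and 58. Only 2 words occurred in all 6 genes (the other, TTCTGT, was in 57.7% of all 3′ UTRs). Each site is shown 5′ to 3′ on the transcript's strand with the word in capitals.
Fuca2: agaagacagttaTCCGCAagccaaggagaa
Tmem160: aaacctgaccctTCCGCAgttc
Armc1: tattggacatttTCCGCAcaagacagaggc
Snx3: attaatgattcaTCCGCAccaatgaagaag
Sh3bgrl3: acccagacccttTCCGCAgccgcctcctct
Bzw1: gatgtaaggcctTCCGCAatgagcagttca
In the GRCm38 build the Fuca2 site lies at chr10:13515298-13515327 (plus strand), the Tmem160 site at chr7:16455473-16455494 (plus), close to the transcript's end, and the Armc1 site at chr3:19133854-19133883 (minus). The Snx3 site lies at chr10:42534789-42534818 (plus), the Sh3bgrl3 site at chr4:134127627-134127656 (minus) and the Bzw1 site at chr1:58405349-58405378 (plus). All lie in the last exon of the transcript used. Tmem160 held the word a second time, in its coding sequence. The 3′ UTR of Zkscan17 did not hold it, and its coding sequence did. No coding transcript was found under the symbols C4a and Cstdc5 in this annotation, so their 3′ UTRs were not read.

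Counting the 6 genes above, the word was in 886 of the 11039 tested genes with an annotated 3′ UTR (8.03%), and in 2 of the 17 genes called higher (11.8%). Among genes with an unadjusted p under 0.05 it was in 85 of 582 lower genes (14.6%) and in 46 of 683 higher genes (6.73%). Against shNizp1#1, 19 of 69 genes called lower held it (27.5%) and 17 of 207 called higher (8.21%). Without the 6 genes above, the word was in 7.98% of all, 13.7% of the lower genes and 20.6% of those called lower against shNizp1#1. The word was chosen on the fold changes of all 11039 genes, not of the 6 alone. The shares without the 6 are therefore no independent check, and all these shares describe these libraries and carry no test. The lower genes with an unadjusted p under 0.05 had a median 3′ UTR of 866 bases, against 1375 bases for all genes.

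Across all genes that held the word, the difference was small. Their median log2 fold change with shNizp1#2 minus that of the other genes was -0.0167. The word was chosen for a low mean of these same values, so the direction of the difference carries no test. By experiment the difference of medians was 0.0037, -0.0465 and -0.0151, so that it had the opposite sign in experiment 1. Against shNizp1#1 it was -0.0383 (-0.0458, -0.0394 and -0.0268 by experiment). For shNizp1#1 against the control it was 0.0274 (0.0431, -0.0046 and 0.0061 by experiment). The contrast between the shRNAs therefore also holds the difference of shNizp1#1 from the control. Longer 3′ UTRs held the word more often. With the genes divided by 3′ UTR length into 3 nearly equal bands, the word was in 2.93%, 6.31% and 14.8% of the short, middle and long band. Within those bands the difference with shNizp1#2 was -0.0708, -0.0352 and -0.0216. The 88 genes with 2 or more sites differed from genes without the word by -0.0057 against the control and -0.0346 against shNizp1#1. By the base before the word, the difference against the control was -0.0253 for A, -0.0060 for C, 0.0320 for G and -0.0415 for T. Genes with the word only in the coding sequence differed from genes with it in neither place by 0.0077 against the control and -0.0210 against shNizp1#1. The sources used here do not give the sequences of the shRNAs, and whether the word pairs with the seed of shNizp1#2 was not tested.

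**Figure D4:**
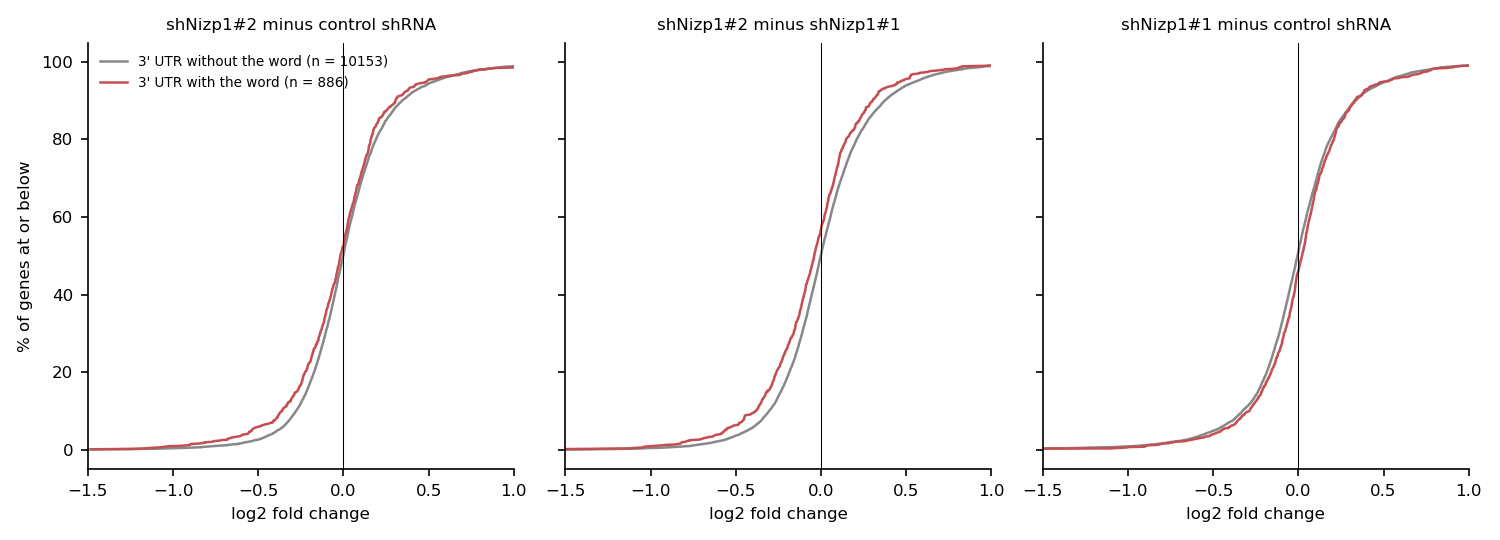
Cumulative share of genes (%) by log2 fold change for the 886 genes whose 3′ UTR holds the word (red) and the 10153 whose 3′ UTR does not (grey), in 3 contrasts. The red curve lies left of the grey one below 0 with shNizp1#2, by more against shNizp1#1 than against the control, and slightly to its right for shNizp1#1 against the control.

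No tested HoxA gene or cofactor was called. Of all tested genes 0.217% were called and 11.1% had an unadjusted p under 0.05, so nothing is read from the absence of calls in lists this small. Hoxa9, a homeobox gene active in stem cells and in many acute leukaemias, measured 18.8, 10.997 and 62.8 CPM with the control shRNA and 16.5, 7.57 and 69.7 CPM with shNizp1#2 (log2 fold change -0.14, SE 0.25, adjusted p = 0.882). The experiments differed far more than the groups, experiment 3 being the highest in both. Hoxa10 was at 4.82, 2.05 and 15.1 CPM against 4.08, 1.70 and 16.4 CPM (-0.07, SE 0.27). In the HoxA cluster 3 of 11 genes were tested, and edgeR, DESeq2 and limma-voom called none, nor had any an unadjusted p under 0.05. Of 10 tested HoxB genes and TALE cofactors none was called by any of these tools (median 0.0874, 1 with an unadjusted p under 0.05). Meis1, a partner of HOX proteins, was at 134, 66.7 and 148 CPM against 144, 56.6 and 157 CPM (-0.00, SE 0.11), and Pbx2, another partner, at 0.31 (SE 0.10, adjusted p = 0.277). The signs of the Hoxa9, Hoxa10 and Meis1 values changed without the block.

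The counts of Nsd1 and Nup98 can include reads of the fusion construct. Nsd1 measured 788, 699 and 745 CPM with the control shRNA and 711, 598 and 791 CPM with shNizp1#2 (log2 fold change -0.09, SE 0.16, adjusted p = 0.888). Nup98 measured 286, 319 and 241 CPM against 305, 255 and 259 CPM (-0.03, SE 0.11, adjusted p = 0.948). Both genes' groups overlapped, and both values turned positive when the shNizp1#2 library of experiment 2 was left out (0.07 and 0.14). Of 24 tested H3K36 methylation enzymes and readers, Nsd1 and Setd5 (0.08, SE 0.08) being the most abundant, none was called by any of the 3 tools, with 16 above 0, a median of 0.113 and 5 at an unadjusted p under 0.05. Of 20 tested zinc finger genes of the ZKSCAN and ZSCAN families, Zkscan17 alone was called. Over all tested genes the shares were 0.217% called and 11.1% at an unadjusted p under 0.05.

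Gene lists were described by their counts and medians, beside a median of -0.00196 and 49.6% above 0 for all tested genes. For all lists here and below, the shares over all tested genes were 0.217% called and 11.1% at an unadjusted p under 0.05, both directions together. Counts of a list on the higher or lower side alone stand beside 717 higher and 614 lower genes of 11994. The transcripts of cytosolic ribosomal proteins had values below 0 in 59 of 59 tested genes, with a median of -0.223. The median was -0.232, -0.204 and -0.231 in experiments 1, 2 and 3, and 59, 53 and 58 members were below 0. None was called by edgeR or limma-voom, while DESeq2 called 7 lower and 38 had an unadjusted p under 0.05 on the lower side. Rpl4 measured 1593, 1267 and 1960 CPM with the control shRNA and 1339, 998 and 1495 CPM with shNizp1#2 (-0.33, SE 0.10, adjusted p = 0.232), and Rplp1 was at -0.07 (SE 0.10). Rpl4 was called without the filter on low counts and in the fit to the 6 libraries (adjusted p = 0.0385 and 0.0237). Many of these genes have processed pseudogenes, so reads may have been split.

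Ribosome biogenesis genes were below 0 in 32 of 35 (median -0.178), none of them called by any of the 3 tools and 9 with an unadjusted p under 0.05 on the lower side. The nucleolar proteins Npm1 and Ncl were at -0.28 (SE 0.10) and -0.16 (SE 0.10). Nuclear genes of the respiratory chain were below 0 in 42 of 47 (median -0.132), with 10 lower at an unadjusted p under 0.05, none called by edgeR or limma-voom and 1 by DESeq2. The ATP synthase subunits Atp5b and Atp5a1 were at -0.12 (SE 0.12) and -0.18 (SE 0.09). The medians of these 3 lists kept their sign under each of the 20 alternatives, scalings included, the ribosomal one between -0.281 and -0.168. Against shNizp1#1 the medians were -0.134 for ribosomal proteins, -0.0405 for ribosome biogenesis and -0.1 for the respiratory chain. Genes without the word described above had a median of -0.0413 in the short band of 3′ UTRs and 0.0359 in the long band, and the part of transcript length in the lists' values was not tested.

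Immediate early genes, which respond within minutes to growth factor or stress signals, were above 0 in 27 of 31 tested genes (median 0.485). Their median was 0.670, 0.367 and 0.265 in the 3 experiments, Btg2 was the only member called by edgeR, DESeq2 or limma-voom with the block, and 10 members had an unadjusted p under 0.05 on the higher side. Against shNizp1#1 the median of the list was 0.0912. Glycolysis and hypoxia genes were above 0 in 20 of 28 (median 0.0906, and 0.0678 against shNizp1#1), with 10 higher at an unadjusted p under 0.05. Ankrd37 was called by edgeR, DESeq2 called it and Slc2a3, and limma-voom with the block called no member (adjusted p = 0.0691 for Ankrd37). Lysosomal genes were spread around 0 (21 of 40 above, median 0.00522), and Fuca2 was the only member called.

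Mast cell cytokines and chemokines were above 0 in 13 of 18 (median 0.276, and 0.261 against shNizp1#1), with 6 at an unadjusted p under 0.05. Their medians by experiment were 0.546, -0.0209 and 0.407, with 16, 9 and 15 members above 0. None was called by edgeR, and both DESeq2 and limma-voom called Il13 higher. The most abundant, Ccl2 and Tgfb1, were at 0.21 (SE 0.18) and 0.06 (SE 0.09). Receptors and feedback genes of IL-3, IL-6 and SCF were above 0 in 20 of 25 (median 0.143, and 0.201 against shNizp1#1), none called by any of the 3 tools and 6 with an unadjusted p under 0.05. Csf2rb2 and Csf2rb, the beta chains of the IL-3 receptor, were at 0.23 (SE 0.08, adjusted p = 0.329) and 0.24 (SE 0.08, adjusted p = 0.301).

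The cell cycle and interferon lists also differed between the experiments. S phase genes were below 0 in 35 of 36 (median -0.195). They had medians of -0.0875, -0.567 and 0.0221 in experiments 1, 2 and 3, and none was called or had an unadjusted p under 0.05. Rfc2 and Mcm3, both of the replication machinery, were at -0.01 (SE 0.08) and -0.23 (SE 0.18). G2 and M phase genes were below 0 in 34 of 36 (median -0.162). By experiment they had medians of -0.0105, -0.528 and -0.00308, with none called and 5 lower at an unadjusted p under 0.05. Mki67 and Top2a, markers of dividing cells, were at -0.13 (SE 0.14) and -0.18 (SE 0.17). DESeq2 and limma-voom called no member of these lists either. Under the 20 alternatives the S phase median ran from -0.338 to -0.0178 and the G2 and M phase median from -0.278 to -0.0111. Interferon-stimulated genes were below 0 in 27 of 31 (median -0.289, from -0.858 to 0.931 under the alternatives). By experiment their medians were 0.911, -1.24 and 0.334, with none called by any of the 3 tools or at an unadjusted p under 0.05. Irf7, a regulator of the interferon response, measured 25.6, 549 and 4.32 CPM with the control shRNA and 101, 155 and 6.31 CPM with shNizp1#2 (log2 fold change -0.16, SE 0.84, adjusted p = 0.966). It was high in experiment 2 in both groups, and without the control library of experiment 2 its value was 1.32. Ddx58, the RIG-I sensor of viral RNA, was at 0.02 (SE 0.37).

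**Figure D5:**
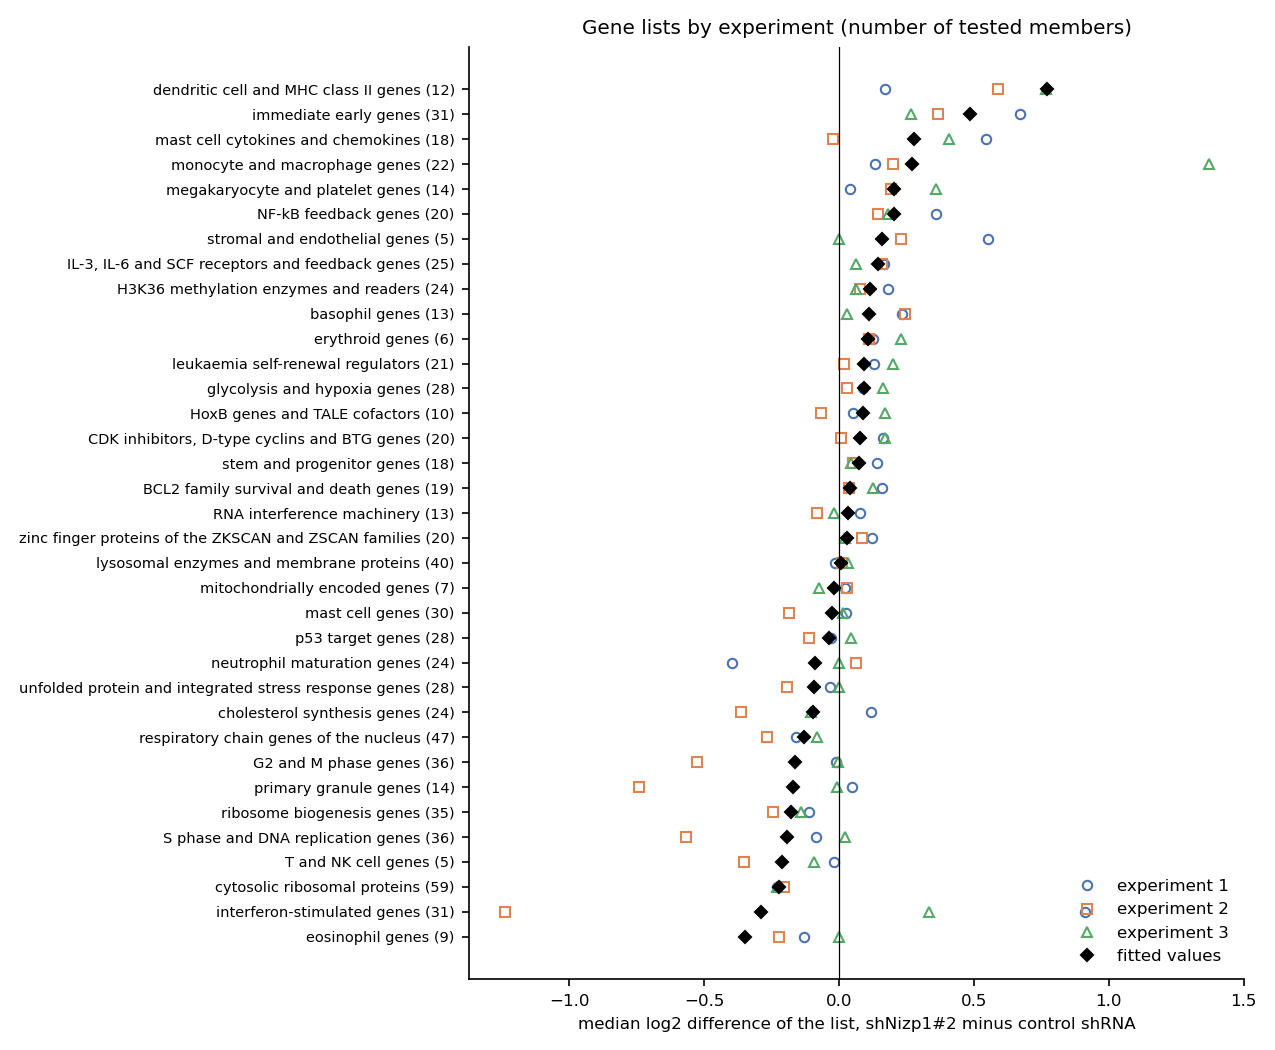
Median log2 difference of each gene list with at least 5 tested members (number in parentheses), with coloured markers for the 3 experiments and black diamonds for the fitted values. Cytosolic ribosomal proteins lie at the same place in all experiments, while interferon-stimulated genes run from -1.24 in experiment 2 to 0.911 in experiment 1.

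The cells expressed mast cell genes strongly. The 7 defining mast cell markers, Cpa3, Cma1 and Kit among them, summed to between 41100 and 54500 CPM with the control shRNA and between 37100 and 48300 CPM with shNizp1#2, and the sum was lower with shNizp1#2 in each experiment. Its members did not all go that way: Kit, the SCF receptor, measured 2500, 2530 and 1930 CPM with the control shRNA and 2900, 2740 and 2220 CPM with shNizp1#2 (log2 fold change 0.18, SE 0.10, adjusted p = 0.528). Hdc was higher in experiment 1 and lower in the others. Mcpt4, another of the 7, went from 1060, 1080 and 1970 CPM to 592, 493 and 851 CPM, without overlap. None of the 30 mast cell genes tested was called by edgeR or limma-voom, and DESeq2 called 2 higher. The median was -0.0282, with 3 higher and 5 lower at an unadjusted p under 0.05. Cpa3, the mast cell carboxypeptidase, measured 29991, 24079 and 21773 CPM against 26801, 19341 and 20451 CPM (log2 fold change -0.19, SE 0.08, adjusted p = 0.429), and Cma1, the chymase, was at -0.25 (SE 0.12). Of the 4 progenitor markers, Cd34 was abundant and Ly6a, the gene of Sca-1, lay between 47.3 and 277 CPM, whereas Flt3 and Procr stayed at or under 3.86 CPM.

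Markers of other myeloid cells differed mainly between experiments. The 5 neutrophil markers summed to 375, 1270 and 0.981 CPM with the control shRNA and to 255, 1090 and 0.440 CPM with shNizp1#2. The 4 monocyte markers summed to 900, 2210 and 106 CPM against 810, 2960 and 425 CPM. In bulk RNA, fewer cells of a type and less RNA per cell cannot be told apart. Btg2, Ankrd37 and Vwf were highest in experiment 2, where both sums were highest, and Cstdc5 was near 0 in experiment 3, where the neutrophil markers were; the part of these cells in the results was not tested. Monocyte and macrophage genes were above 0 in 18 of 22 (medians 0.134, 0.200 and 1.37 by experiment, and -0.0124 against shNizp1#1), none called by any of the 3 tools and 1 with an unadjusted p under 0.05. Lyz2 and Gpnmb were at 0.70 (SE 1.01) and 0.45 (SE 0.89), and edgeR called both when low counts were not filtered (adjusted p = 2.18e-09 and 0.00413). Neither kept its direction across experiments 1, 2 and 3, with -0.19, 0.48 and 2.02 for Lyz2 and -0.62, 0.83 and 1.18 for Gpnmb. Dendritic cell and MHC class II genes were above 0 in 9 of 12 (median 0.769, and 0.577 against shNizp1#1), none called by any of the 3 tools and 6 with an unadjusted p under 0.05. Cd74, the invariant chain of MHC class II, was at 21.9, 192 and 4.12 CPM against 48.4, 279 and 13.5 CPM (0.87, SE 0.31, adjusted p = 0.366), and H2-Ab1 was at -0.01 (SE 0.19). Cd74 was called without a filter on low counts (adjusted p = 2.04e-07), in the fit to the 6 libraries (adjusted p = 0.0459) and without experiment 2 (adjusted p = 0.0332).

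The 6 libraries held between 4708272 and 6661275 counts, with all 3 shNizp1#2 libraries deeper than the control libraries, and the 12 libraries between 3586538 and 6842589. At these depths 3 counts correspond to between 0.417 and 0.837 CPM over the 12 libraries. The share of mitochondrially encoded counts ran from 1.06% to 1.97%.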

How the data were processed

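RNA was measured as read counts per gene in 12 libraries. The authors deposited whole-number counts, made, per the submitters' processing notes, with Trimmomatic 0.32, STAR 2.5.3a on mm10 and featureCounts. For featureCounts, the sources used here give neither version nor strand setting nor annotation, so overlapping antisense genes may share reads. Groups came from the sample labels.

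The test was edgeR 4.0.16 (R 4.3.3), robust quasi-likelihood, on all 12 libraries, with group and replicate number as a block, TMM scaling and a filter on low counts (11994 of 55376 genes tested), and a Benjamini-Hochberg adjusted p under 0.05. The replicate number pairs the samples: residuals of same-numbered libraries correlated in all 18 pairs (r from 0.205 to 0.870), against a median of -0.181 for other pairs. Residuals were taken from each group's mean, so the negative median follows from the positive values and is no independent reference. That a number marks an experiment is inferred. No replicates agreed within sampling noise. The fit was tested on simulated data.

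Named genes were Zkscan17, Nup98, Nsd1, Fuca2, Tmem160, Btg2 and Bcl2, then up to 12 called genes per direction with the largest change, at least 5 CPM in the higher group and the same direction in all 3 experiments. Up to 4 called members of each list followed, or, for a described list with none, its 2 most abundant members. The genes given with the comparison and the 37 lists (927 of 928 entries in the file) were chosen with earlier results of these data known. The search for 3′ UTR words (longest annotated 3′ UTR of each gene, GENCODE vM21, matched by symbol, sense strand) was added after the data were seen. Alternatives were other scalings and filters, DESeq2 1.42.0, limma-voom (limma 3.58.1), no block, only the 6 libraries, and leaving out libraries or experiments. The floor of 3 counts covers counting error only.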

Additional observations from a re-analysis of the deposited data

How the results depend on the processing

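The 26 called genes kept their direction under each of the 20 alternatives, while the number of calls did not stay the same. With RLE scaling, upper-quartile scaling, library size only, a minimum mean of 1 CPM and limma-voom with the block, between 23 and 28 genes were called in total. Without a filter on low counts, 256 genes were called higher and 113 lower against the control, and 437 and 189 against shNizp1#1. DESeq2 with the block called 48 higher and 30 lower. The fit to only the 6 libraries called 243 and 99. Without the replicate block, edgeR called 0 higher and 1 lower against the control, with 285 genes at an unadjusted p under 0.05, and 0 and 1 against shNizp1#1. Zkscan17 was then at -1.24 and not called. Further fits without the replicate block were added after the data were seen: DESeq2 called 2 higher and 5 lower (58 and 15 against shNizp1#1), Zkscan17 and Tmem160 among them (adjusted p = 5.30e-06 and 1.50e-07 against the control), and limma-voom 0 and 1 (0 and 1), with Zkscan17 at -1.26 and not called (adjusted p = 0.184). With a library or an experiment left out, calls ran from 0 to 14 higher and from 3 to 9 lower against the control, and from 10 to 185 and from 2 to 59 against shNizp1#1, with fewer samples in each fit; Zkscan17 stayed between -1.33 and -1.13 and was called each time. The cause of the other differences was not tested. Depth limits genes near 3 counts per library.

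Of the named genes, 13 changed sign under some alternative, and none of these 13 was called in the main comparison. Without the replicate block, edgeR put Hoxa9 at 0.0186, Hoxa10 at 0.0179, Meis1 at 0.0380, H2-Ab1 at 0.0296 and Ddx58 at -0.276, and DESeq2 put them at 0.0143, 0.0136, 0.0360, 0.0423 and -0.277. Meis1 was at 0.00065 without the filter, 0.00565 with a minimum mean of 1 CPM and 0.00415 in the 6 libraries, and Irf7 at 0.0913 in DESeq2 with the block and 0.158 in limma-voom without it. With libraries or experiments left out, values ran from -0.130 to 0.135 for Nup98, from -0.241 to 0.0746 for Nsd1, from -0.354 to 0.0257 for Hoxa9, from -0.250 to 0.0323 for Hoxa10 and from -0.0658 to 0.111 for Meis1. They ran from -0.0149 to 0.153 for Tgfb1, from -0.0924 to 0.951 for Gpnmb, from -0.234 to 0.166 for H2-Ab1, from -1.27 to 1.63 for Irf7 and from -0.376 to 0.677 for Ddx58. The ranges were -0.0589 to 0.0449 for Rfc2, -0.240 to 0.0538 for Mki67 and -0.165 to 0.0096 for Rplp1.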
